A study of Mus musculus with 36 samples.

Results

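Interferon-stimulated genes are the genes that cells switch on when type I, II or III interferon reaches its receptor. 37 of them, the best-known antiviral, regulatory and secreted ones, were taken by name from a gene-level count table of mouse hippocampus. All 37 were found among the 50559 genes of the table, and all 37 were among the 25382 genes that passed the filter on low counts. They were followed through 36 RNA-seq libraries from 8 groups.

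The study crossed 2 transgenes in female mice of 6 months and asked how early amyloid and tau pathology, alone and together, act on the hippocampus with and without spatial learning. APP mice carried human APP with the Swedish and Indiana mutations (J9 line), Tau mice carried human tau P301S (PS19 line, whose transgene is driven by the mouse prion promoter), APP/Tau mice carried both, and WT mice carried neither. Every mouse, WT included, also carried the PV_Cre and RiboTag alleles, which tag ribosomes of parvalbumin neurons, on a C57BL/6 background. The libraries come from the input lysate before any pull-down, so they hold RNA of all hippocampal cells. Naive mice were left in their cages. Trained mice swam in the Morris water maze for 5 days with 6 trials per day, had a probe trial 24 h after the last trial, and were killed 2 h after that probe. There were 6 WT, 5 APP, 4 Tau and 6 APP/Tau naive libraries, and 5 WT, 3 APP, 4 Tau and 3 APP/Tau trained libraries. The labels do not say outright that each library is 1 animal, so the spread behind each p-value is that between libraries and may be technical.

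Type I interferon binds a receptor of 2 chains, Ifnar1 and Ifnar2, whose kinases phosphorylate transcription factors such as Stat2. A complex that holds Stat2 and Irf9 then enters the nucleus and binds the interferon-stimulated response element in the promoters of its targets, Irf7 and Stat2 among them, so that the response feeds on itself. In the brain, microglia, endothelial cells and astrocytes are known to carry this response, and a subset of microglia with high levels of these genes is known from mice with amyloid or tau deposits.

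The promoters of the members were read first, because the response element is what ties the list together. A RefSeq promoter table of the GRCm38.p6 build, with 250 bases before and 50 after each annotated start, held 33 promoters of 28 members. Ifi27l2a, Usp18, Rtp4, Oas2, Mx1, Dhx58, Parp9, Parp14 and Zbp1 are not shown. The core of the response element, searched as TTTCNNTTTC on both strands, stood in 16 of the 33 promoters (48.5%), which belong to 15 genes, against 3.44% of all 32851 promoters in the table. The gamma-activated site, a motif of the type II interferon response, searched as TTCNNNGAA, which reads the same on both strands, stood in 21.2% of the members' promoters and 8.3% of all. It overlapped a response element core in Bst2 and in Ifitm3. A match describes these letters only and is not evidence that a factor bound there.

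The 250 bases before the start are given for 6 members chosen among those that hold a response element core, with the matched cores in capitals. Isg15 has 3 overlapping cores (chr4:156200819-156201068, minus strand), and Bst2 has 2 overlapping ones (chr8:71537473-71537722, minus strand). Ifit3 (chr19:34583279-34583528, plus strand) and Ifit1 (chr19:34640639-34640888, plus strand) have 2 separate cores each. Stat2 (chr10:128270248-128270497, plus strand) and Cxcl10 (chr5:92348890-92349139, minus strand) have 1 core each, the farthest from the start.
Isg15: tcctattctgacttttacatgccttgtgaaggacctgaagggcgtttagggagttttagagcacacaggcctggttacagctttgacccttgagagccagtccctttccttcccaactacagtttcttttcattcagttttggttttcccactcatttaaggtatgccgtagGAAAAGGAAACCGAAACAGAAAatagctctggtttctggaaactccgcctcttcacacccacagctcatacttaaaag
Ifit3: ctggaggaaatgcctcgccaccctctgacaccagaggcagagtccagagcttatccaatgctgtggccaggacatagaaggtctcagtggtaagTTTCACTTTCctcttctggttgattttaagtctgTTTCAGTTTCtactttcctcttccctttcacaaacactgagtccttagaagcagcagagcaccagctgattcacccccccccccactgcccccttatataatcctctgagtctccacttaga
Bst2: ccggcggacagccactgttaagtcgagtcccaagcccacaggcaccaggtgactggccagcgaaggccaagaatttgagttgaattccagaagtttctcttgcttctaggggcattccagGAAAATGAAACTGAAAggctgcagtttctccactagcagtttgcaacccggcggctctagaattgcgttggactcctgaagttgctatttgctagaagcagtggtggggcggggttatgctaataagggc
Ifit1: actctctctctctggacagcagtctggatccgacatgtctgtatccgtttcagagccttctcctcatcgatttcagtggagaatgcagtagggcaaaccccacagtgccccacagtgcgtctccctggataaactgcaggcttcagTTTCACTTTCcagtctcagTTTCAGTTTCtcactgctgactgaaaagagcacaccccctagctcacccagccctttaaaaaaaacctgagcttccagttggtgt
Stat2: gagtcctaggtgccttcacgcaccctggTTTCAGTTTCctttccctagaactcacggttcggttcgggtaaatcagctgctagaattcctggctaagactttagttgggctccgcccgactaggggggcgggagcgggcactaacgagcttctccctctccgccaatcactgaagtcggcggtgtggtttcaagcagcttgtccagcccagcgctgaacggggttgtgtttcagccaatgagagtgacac
Cxcl10: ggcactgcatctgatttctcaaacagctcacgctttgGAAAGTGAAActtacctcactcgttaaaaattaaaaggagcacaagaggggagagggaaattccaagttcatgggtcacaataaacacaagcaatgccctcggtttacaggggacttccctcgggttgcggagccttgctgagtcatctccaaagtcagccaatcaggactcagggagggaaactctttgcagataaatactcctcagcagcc

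Counted from the start site, the cores began at position -222 in Stat2, -213 in Cxcl10, -156 in Ifit3, -130 in Bst2, -104 in Ifit1 and -78 in Isg15. Cxcl10 and Stat2, the members with the largest and the smallest log2 change with Tau (given below), each hold 1 core, and Ifi44 and Oasl2 hold none in these windows. Irf7 and Irf9 also hold none, so the search did not find in Irf7 the element named above for it.

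**Figure D1:**
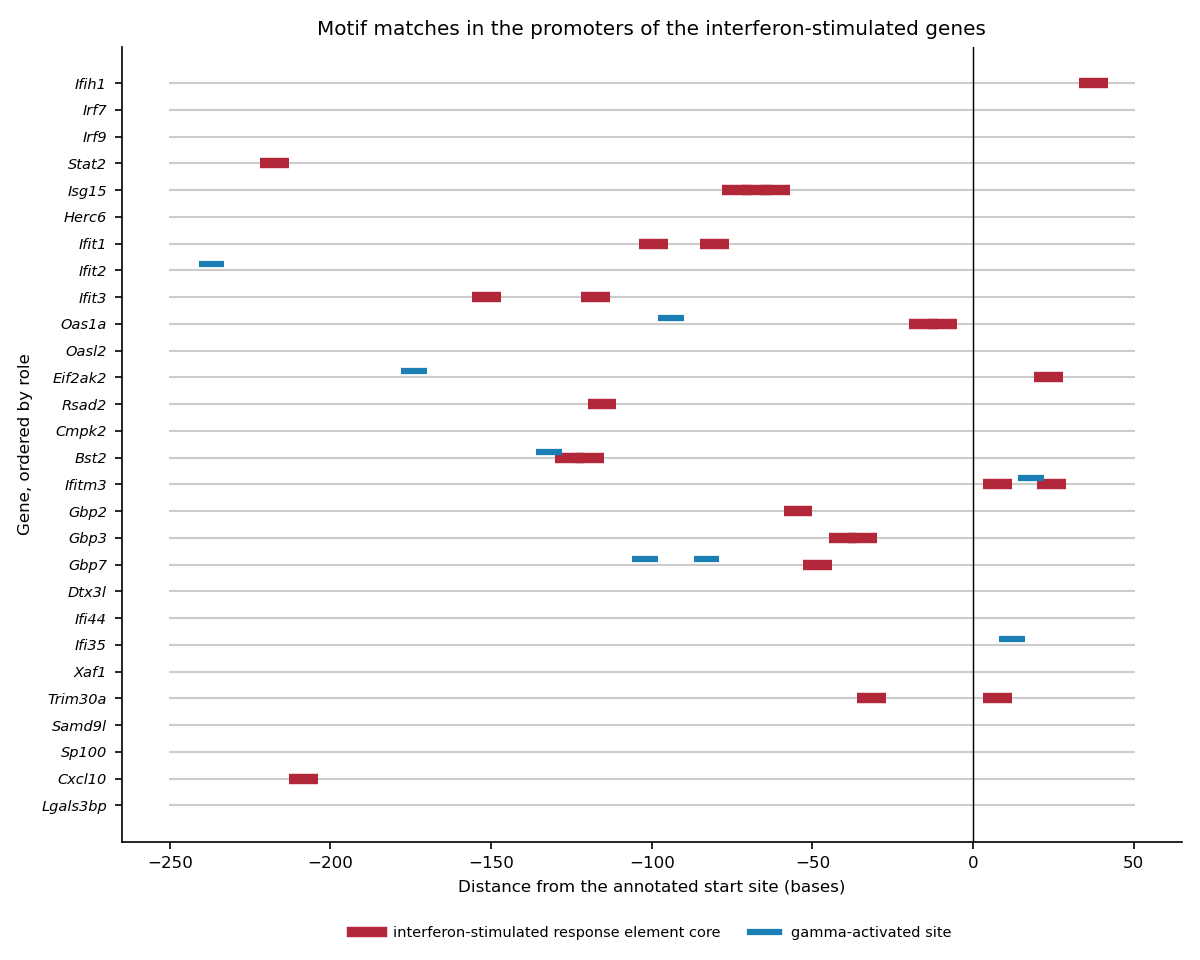
Position of each motif match in the promoters of the 28 members found in the promoter table, in bases from the annotated start site (vertical line). Red bars are response element cores and blue bars gamma-activated sites; grey lines span the 300 bases searched, drawn over all promoters of a gene. Stat2 (position -222) and Cxcl10 (position -213) have the cores farthest from the start; the core of Ifih1 ends at position 42.

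Library totals ran from 69.2 to 124.8 M counts (M, mega; median 85.4 M), and levels are CPM, the count of a gene per M counts after TMM scaling. Usp16 was at 12.9 to 14.9 CPM in every library labelled with APP and at 24.8 to 30.3 CPM in the rest. Prnp, which shares sequence with the Tau transgene, was at 1423 to 2142 CPM in the libraries labelled with Tau, except the library labelled Tau trained replicate 4, at 846 CPM, and at 728 to 879 CPM in the rest. That library thus goes against its label. WT trained replicate 4 held 417 CPM of striatal markers against at most 125.2 CPM in any other library. The summed level of 7 choroid plexus markers ran from 54.85 CPM in WT naive replicate 6 to 4744 CPM in APP trained replicate 2. WT trained replicate 5 held 40.5 CPM of endothelial markers against at least 88.7 CPM elsewhere, and it was the lowest of all libraries for 14 of the 37 members.

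The members span a wide range of levels. Divided by annotated exon length (GENCODE M21), the median over 36 libraries was highest for Ifitm3 at 8.15 CPM per kb, followed by Lgals3bp at 5.44, Cmpk2 at 5.18, Ifi27l2a at 4.59 and Stat2 at 4.35. It was lowest for Mx1 at 0.0330 CPM per kb, Zbp1 at 0.0374, Ifi44 at 0.0881 and Cxcl10 at 0.128. These 4 are close to the detection limit in most libraries, with as few as 0 counts for Mx1 and Zbp1, 6 for Ifi44 and 8 for Cxcl10. Counts of near-identical neighbours can be shared between genes (Ifit3 with Ifit3b, Oas1a with its Oas1 copies, Trim30a with Trim30d, Ifi27l2a with Ifi27l2b, and the Gbp cluster with Gbp2, Gbp3 and Gbp7), so values of single members of these families are uncertain. Parp9 and Dtx3l overlap head to head, and the strand setting of the counting is not given.

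A few libraries held the high values of nearly the whole list. The mean of the 37 log2 levels, centred over all libraries, was 1.41 in APP/Tau trained replicate 1, 1.39 in Tau naive replicate 2, 1.24 in APP/Tau naive replicate 6, 0.778 in Tau trained replicate 3 and 0.637 in APP/Tau naive replicate 1. Every one of these is a library labelled with Tau, and the next library, APP naive replicate 1, was at 0.444. The highest value of a member fell in Tau naive replicate 2 for 18 members, in APP/Tau trained replicate 1 for 15, in APP/Tau naive replicate 6 for 3 (Bst2, Xaf1, Eif2ak2) and in Tau trained replicate 3 for 1 (Ifi44).

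By group, the mean ± SD of this score was -0.19 ± 0.29 in naive WT (n = 6), -0.02 ± 0.29 in naive APP (n = 5), 0.25 ± 0.80 in naive Tau (n = 4) and 0.23 ± 0.64 in naive APP/Tau (n = 6). In trained groups it was -0.44 ± 0.26 in WT (n = 5), -0.29 ± 0.09 in APP (n = 3), -0.02 ± 0.58 in Tau (n = 4) and 0.68 ± 0.63 in APP/Tau (n = 3). The spread was wider in every group labelled with Tau than in any group without it. In trained APP/Tau the lowest library (0.299) stood above the highest trained WT library (-0.128).

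**Figure D2:**
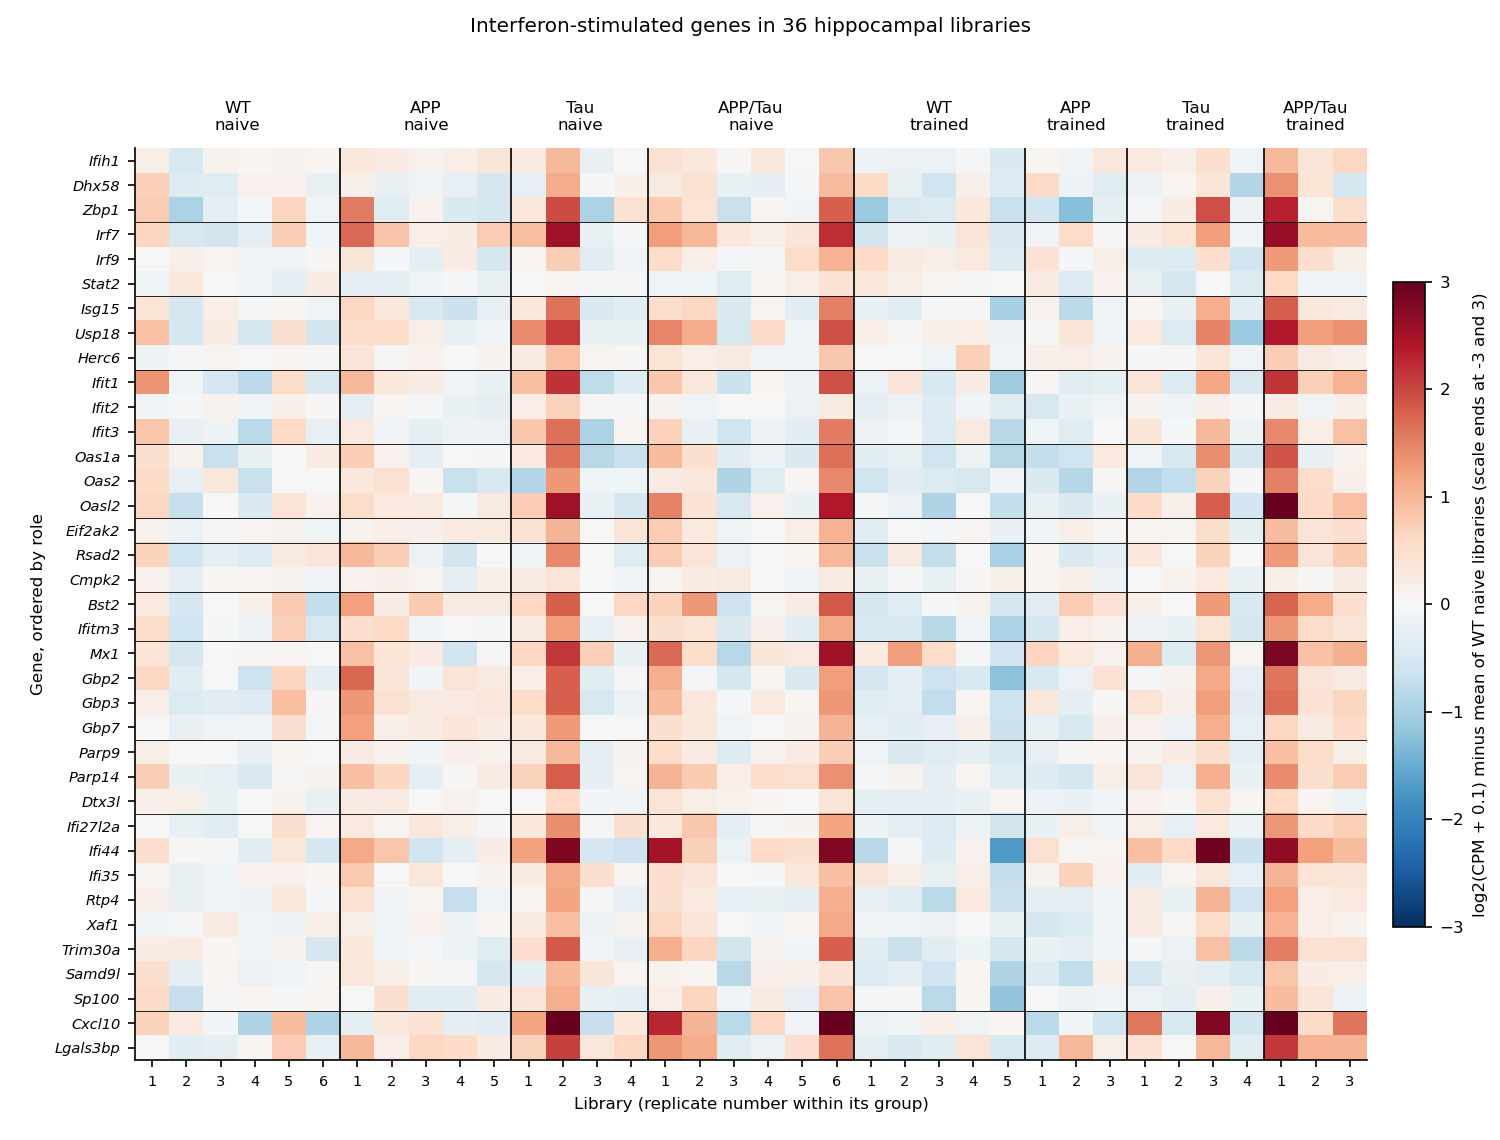
Level of each of the 37 genes (rows, ordered by role, with lines between roles) in each of the 36 libraries (columns, by group), as log2(CPM + 0.1) minus the mean of the naive WT libraries. Columns that are red from top to bottom are Tau naive 2, APP/Tau naive 6 and APP/Tau trained 1, with paler red in APP/Tau naive 1 and Tau trained 3; WT trained 5 has the most blue cells.

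The sensors of foreign nucleic acid come at the start of the response. Ifih1 (MDA5) detects long double-stranded RNA in the cytosol, Dhx58 (LGP2) is a related helicase that tunes it, and Zbp1 binds Z-form nucleic acids and can trigger cell death. Ifih1 was between 2.39 and 3.81, with a median of 3.58 CPM in the naive WT libraries. It read 4.22, 4.04, 3.74, 3.91 and 4.42 CPM in naive APP, 4.1, 6.79, 2.9 and 3.44 in naive Tau, and between 3.44 and 6.02, with a median of 4.28 in naive APP/Tau. Ifih1 in trained mice read 3.02, 2.96, 2.98, 3.3 and 2.48 CPM in WT, 3.5, 3.21 and 4.3 in APP, 4.15, 3.8, 4.86 and 3.07 in Tau, and 6.7, 4.39 and 5.31 in APP/Tau. All 3 trained APP/Tau libraries lay above all 5 trained WT libraries, while the naive APP/Tau and WT ranges overlapped. Dhx58 ranged from 0.442 to 2.49 CPM over all libraries and Zbp1 from 0 to 1.13 CPM, both highest in APP/Tau trained replicate 1.

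Irf7, Irf9 and Stat2 are the transcription factors of the list, and their spread over libraries differed in size. Irf7 is the factor that amplifies interferon production. Irf7 was between 0.667 and 1.77, with a median of 0.884 CPM in the naive WT libraries. It read 3.52, 1.92, 1.18, 1.2 and 1.8 CPM in naive APP, 2.00, 6.4, 0.857 and 0.966 in naive Tau, and between 1.14 and 5.07, with a median of 1.73 in naive APP/Tau. Irf7 in trained mice read 0.665, 0.905, 0.872, 1.36 and 0.732 CPM in WT, 0.944, 1.52 and 1.04 in APP, 1.22, 1.37, 2.58 and 0.944 in Tau, and 6.73, 2.06 and 2.02 in APP/Tau. The trained APP/Tau libraries again stood clear of trained WT, and the highest naive Tau and APP/Tau libraries exceeded every WT value. Irf9 was between 7.26 and 8.82, with a median of 8.07 CPM in the naive WT libraries. It read 10.3, 7.82, 6.6, 9.32 and 5.63 CPM in naive APP, 8.33, 13.4, 6.34 and 7.45 in naive Tau, and between 7.81 and 16.5, with a median of 10.4 in naive APP/Tau. Irf9 in trained mice read 12.1, 9.57, 8.97, 9.83 and 6.11 CPM in WT, 10.8, 7.83 and 8.98 in APP, 6.04, 6.00, 11.2 and 5.21 in Tau, and 19.5, 11.3 and 9.1 in APP/Tau. Irf9, the DNA-binding part of the complex that holds Stat2, had its highest values in libraries with a high list score, but its trained WT and APP/Tau ranges overlapped. Stat2 was between 21.7 and 32.9, with a median of 25.7 CPM in the naive WT libraries. It read 22.1, 21.9, 24.4, 25.7 and 22.7 CPM in naive APP, 26.6, 27.8, 25.7 and 25.9 in naive Tau, and between 20.8 and 36, with a median of 26.1 in naive APP/Tau. Stat2 in trained mice read 33.2, 29.9, 27.7, 26 and 26.7 CPM in WT, 31.6, 20.3 and 29.2 in APP, 22.6, 18.4, 26.7 and 19.9 in Tau, and 40.4, 24.9 and 24.6 in APP/Tau. Stat2 overlapped between every pair of groups with WT, with its highest value in APP/Tau trained replicate 1 and its lowest in Tau trained replicate 2.

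The ISG15 system attaches a small ubiquitin-like protein, Isg15, to other proteins. Herc6 is its main ligase in mice, and Usp18 removes it again and also blocks the type I receptor. Isg15 was between 0.758 and 1.5, with a median of 1.12 CPM in the naive WT libraries. It read 1.75, 1.42, 0.772, 0.679 and 0.929 CPM in naive APP, 1.4, 3.63, 0.796 and 0.878 in naive Tau, and between 0.798 and 3.38, with a median of 1.42 in naive APP/Tau. Isg15 in trained mice read 0.955, 0.867, 1.08, 1.15 and 0.505 CPM in WT, 1.23, 0.602 and 1.03 in APP, 1.16, 0.93, 2.47 and 0.87 in Tau, and 4.13, 1.43 and 1.37 in APP/Tau. Trained APP/Tau was above trained WT in all libraries, by a small margin in replicates 2 and 3. Usp18 ranged from 0.162 to 2.88 CPM with the same highest library, and Herc6 only from 4.41 to 9.17 CPM.

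The IFIT proteins bind viral RNA and hold back its translation. Ifit3 was between 3.32 and 10.6, with a median of 5.21 CPM in the naive WT libraries. It read 7.31, 5.62, 4.87, 5.35 and 5.27 CPM in naive APP, 10.5, 18.9, 3.04 and 6.3 in naive Tau, and between 3.89 and 17.8, with a median of 5.21 in naive APP/Tau. Ifit3 in trained mice read 5.29, 5.73, 4.48, 7.16 and 3.28 CPM in WT, 5.43, 4.56 and 5.88 in APP, 7.62, 5.68, 11.7 and 5.37 in Tau, and 16.3, 6.8 and 11 in APP/Tau. Ifit3 was high in single libraries of every group with Tau but overlapped with WT throughout. Ifit2 was between 9.41 and 11.3, with a median of 10.1 CPM in the naive WT libraries. It read 8.29, 10.7, 9.98, 8.95 and 8.49 CPM in naive APP, 11.7, 16.6, 10.4 and 9.79 in naive Tau, and between 9.04 and 12.4, with a median of 10.2 in naive APP/Tau. Ifit2 in trained mice read 8.34, 8.98, 7.79, 9.69 and 8.18 CPM in WT, 7.27, 8.85 and 9.46 in APP, 11, 9.48, 11.3 and 9.87 in Tau, and 12.1, 9.54 and 11.4 in APP/Tau. Ifit2 had a narrow range, and its high value in Tau naive replicate 2 stood apart. Ifit1 ranged from 0.804 to 8.39 CPM over all libraries.

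The OAS enzymes make the 2-5A messenger that activates RNase L, and Eif2ak2 (PKR) is the kinase that stops translation on double-stranded RNA. Oasl2 was between 1.43 and 3.7, with a median of 2.44 CPM in the naive WT libraries. It read 3.52, 2.92, 2.84, 2.29 and 2.88 CPM in naive APP, 4.1, 14.2, 2.01 and 1.65 in naive Tau, and between 1.65 and 12.9, with a median of 2.89 in naive APP/Tau. Oasl2 in trained mice read 2.25, 2.07, 1.21, 2.34 and 1.39 CPM in WT, 2.02, 1.73 and 2.04 in APP, 3.56, 2.63, 8.42 and 1.55 in Tau, and 26, 3.56 and 4.45 in APP/Tau. All trained APP/Tau libraries were above all trained WT ones for Oasl2, 1 of them far above the other 2. Eif2ak2 was between 8.45 and 10.3, with a median of 9.89 CPM in the naive WT libraries. It read 10.2, 10.9, 10.6, 11.6 and 11.8 CPM in naive APP, 13.2, 19.3, 9.64 and 12.6 in naive Tau, and between 8.84 and 19.9, with a median of 11.4 in naive APP/Tau. Eif2ak2 in trained mice read 7.68, 9.42, 9.1, 10.0 and 8.29 CPM in WT, 8.99, 10.8 and 9.79 in APP, 10.1, 9.95, 13.8 and 7.9 in Tau, and 18.2, 12.8 and 13.6 in APP/Tau. The trained APP/Tau libraries exceeded the trained WT range here too. Oas1a ranged from 0.144 to 1.51 CPM and Oas2 from 0.289 to 1.97 CPM.

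Rsad2 (viperin) makes a chain-terminating nucleotide, and Cmpk2, its neighbour in the genome, is a nucleotide kinase. Rsad2 ranged from 0.495 to 3.08 CPM, and Cmpk2 from 16.8 to 26.6 CPM, the narrowest of the 37 as highest over lowest level. Bst2 (tetherin) holds budding virus at the cell surface and Ifitm3 blocks viral entry. Bst2 was between 1.52 and 4.55, with a median of 2.79 CPM in the naive WT libraries. It read 6.3, 3.06, 4.61, 3.17 and 3.15 CPM in naive APP, 4.1, 9.3, 2.65 and 4.06 in naive Tau, and between 1.68 and 9.67, with a median of 3.68 in naive APP/Tau. Bst2 in trained mice read 1.79, 2.01, 2.55, 2.81 and 1.82 CPM in WT, 2.06, 4.52 and 3.6 in APP, 2.92, 2.58, 6.44 and 1.87 in Tau, and 8.95, 5.79 and 3.73 in APP/Tau. Bst2 in the trained APP/Tau libraries was above every trained WT library. Ifitm3 was between 3.67 and 9.27, with a median of 5.21 CPM in the naive WT libraries. It read 7.98, 8.49, 5.2, 5.58 and 5.47 CPM in naive APP, 6.73, 13.3, 4.67 and 6.09 in naive Tau, and between 4.09 and 12.3, with a median of 6.83 in naive APP/Tau. Ifitm3 in trained mice read 3.95, 4.00, 3.06, 5.05 and 2.85 CPM in WT, 3.81, 6.38 and 6.04 in APP, 5.02, 4.83, 7.45 and 3.92 in Tau, and 13.8, 8.17 and 7.18 in APP/Tau. Ifitm3 showed the same separation in the trained groups, and 2 naive WT libraries were higher than 3 of the 4 naive Tau libraries.

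Among the GTPases, Mx1 is an antiviral dynamin-like protein whose gene is defective in C57BL/6 mice, and the Gbp proteins coat vacuoles of intracellular microbes and respond above all to type II interferon. Gbp7 was between 3.75 and 6.17, with a median of 4.1 CPM in the naive WT libraries. It read 10.4, 4.89, 5.22, 5.77 and 5.15 CPM in naive APP, 5.41, 10.7, 4.35 and 4.41 in naive Tau, and between 4.04 and 8.88, with a median of 5.08 in naive APP/Tau. Gbp7 in trained mice read 3.66, 3.4, 3.68, 4.82 and 2.76 CPM in WT, 3.69, 3.17 and 4.86 in APP, 4.74, 3.82, 9.4 and 3.64 in Tau, and 6.71, 5.14 and 6.54 in APP/Tau. APP naive replicate 1 reached the level of Tau naive replicate 2 for this gene without carrying Tau. Gbp2 ranged from 0.958 to 8.49 CPM, Gbp3 from 1.62 to 9.91 CPM and Mx1 from 0 to 1.16 CPM. Gbp2 was the only member whose trained Tau libraries were all above the trained WT libraries, a separation that 2.95% of all genes had.

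Parp9 and the ubiquitin ligase Dtx3l form a complex that supports interferon signalling, and Parp14 is an ADP-ribosyltransferase encoded next to them. Parp9 was between 2.78 and 3.75, with a median of 3.38 CPM in the naive WT libraries. It read 3.96, 3.66, 3.15, 3.73 and 3.66 CPM in naive APP, 4.03, 6.7, 2.75 and 3.6 in naive Tau, and between 2.52 and 5.61, with a median of 3.98 in naive APP/Tau. Parp9 in trained mice read 3.08, 2.46, 2.56, 2.7 and 2.38 CPM in WT, 2.78, 3.44 and 3.48 in APP, 3.61, 3.89, 4.73 and 2.71 in Tau, and 6.33, 4.91 and 3.78 in APP/Tau. All trained APP/Tau libraries were above all trained WT ones. Parp14 ranged from 1.55 to 8.31 CPM and Dtx3l from 5.72 to 10.7 CPM.

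The other intracellular members have less settled functions. Ifi27l2a was between 1.56 and 2.82, with a median of 1.99 CPM in the naive WT libraries. It read 2.47, 2.13, 2.55, 2.28 and 1.95 CPM in naive APP, 2.52, 5.37, 1.94 and 2.84 in naive Tau, and between 1.6 and 4.66, with a median of 2.36 in naive APP/Tau. Ifi27l2a in trained mice read 1.78, 1.63, 1.5, 1.78 and 1.32 CPM in WT, 1.71, 2.27 and 1.84 in APP, 2.25, 1.68, 2.46 and 1.78 in Tau, and 5.11, 3.04 and 3.32 in APP/Tau. Ifi27l2a, a small membrane protein, was higher in every trained APP/Tau library than in any trained library of the other genotypes. Ifi44 was between 0.267 and 0.641, with a median of 0.426 CPM in the naive WT libraries. It read 1.06, 0.838, 0.247, 0.334 and 0.518 CPM in naive APP, 1.11, 3.55, 0.269 and 0.241 in naive Tau, and between 0.368 and 3.53, with a median of 0.722 in naive APP/Tau. Ifi44 in trained mice read 0.194, 0.402, 0.300, 0.474 and 0.0618 CPM in WT, 0.619, 0.455 and 0.454 in APP, 0.886, 0.681, 3.78 and 0.236 in Tau, and 3.22, 1.14 and 0.919 in APP/Tau. Ifi44 was at 2.85 CPM or more in the 5 libraries with the highest list score and at 1.14 CPM or less in the other 31. Ifi35 was between 1.22 and 1.6, with a median of 1.5 CPM in the naive WT libraries. It read 2.56, 1.45, 1.85, 1.47 and 1.56 CPM in naive APP, 1.7, 3.31, 2.06 and 1.52 in naive Tau, and between 1.39 and 2.78, with a median of 1.88 in naive APP/Tau. Ifi35 in trained mice read 1.91, 1.66, 1.23, 1.66 and 0.845 CPM in WT, 1.57, 2.39 and 1.58 in APP, 1.11, 1.53, 1.84 and 1.21 in Tau, and 3.03, 1.96 and 1.89 in APP/Tau. Ifi35 overlapped with WT in every group. Samd9l was between 2.94 and 5.16, with a median of 3.5 CPM in the naive WT libraries. It read 4.61, 4.09, 3.78, 3.44 and 2.52 CPM in naive APP, 3.00, 7.15, 4.7 and 3.84 in naive Tau, and between 2.00 and 4.92, with a median of 3.97 in naive APP/Tau. Samd9l in trained mice read 2.69, 2.98, 2.38, 3.77 and 1.9 CPM in WT, 2.75, 2.14 and 4.03 in APP, 2.51, 3.11, 2.96 and 2.6 in Tau, and 6.47, 4.23 and 4.19 in APP/Tau. Samd9l, a growth-restraining factor, was above trained WT in all 3 trained APP/Tau libraries but was not high in Tau trained replicate 3. Rtp4 ranged from 0.994 to 4.40 CPM, Xaf1 from 2.90 to 9.30, Trim30a from 1.05 to 6.92 and Sp100, a nuclear body protein, from 0.773 to 4.06 CPM.

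Cxcl10 and Lgals3bp are secreted. Cxcl10 is the chemokine that draws Cxcr3-bearing T cells, and Lgals3bp is a glycoprotein that binds galectins. Cxcl10 was between 0.089 and 0.603, with a median of 0.287 CPM in the naive WT libraries. It read 0.201, 0.355, 0.391, 0.197 and 0.188 CPM in naive APP, 0.718, 4.21, 0.122 and 0.351 in naive Tau, and between 0.105 and 3.6, with a median of 0.541 in naive APP/Tau. Cxcl10 in trained mice read 0.218, 0.239, 0.300, 0.237 and 0.278 CPM in WT, 0.105, 0.241 and 0.138 in APP, 0.981, 0.159, 2.38 and 0.147 in Tau, and 3.78, 0.435 and 0.998 in APP/Tau. Cxcl10 was at 1.62 CPM or more in the 5 libraries with the highest list score and at 0.998 CPM or less in all others. Lgals3bp was between 9.54 and 20.5, with a median of 11.1 CPM in the naive WT libraries. It read 23.5, 13.8, 18.6, 18 and 14.2 CPM in naive APP, 19.5, 50.2, 15.3 and 18.6 in naive Tau, and between 9.57 and 37.2, with a median of 21.5 in naive APP/Tau. Lgals3bp in trained mice read 9.79, 8.81, 9.62, 15.7 and 8.7 CPM in WT, 9.12, 23.9 and 13.5 in APP, 16.3, 12.1, 24 and 9.59 in Tau, and 52.8, 25 and 24.3 in APP/Tau. Lgals3bp in trained APP/Tau libraries was above every trained WT library, and all 5 naive APP libraries were above all naive WT libraries but 1.

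**Figure D3:**
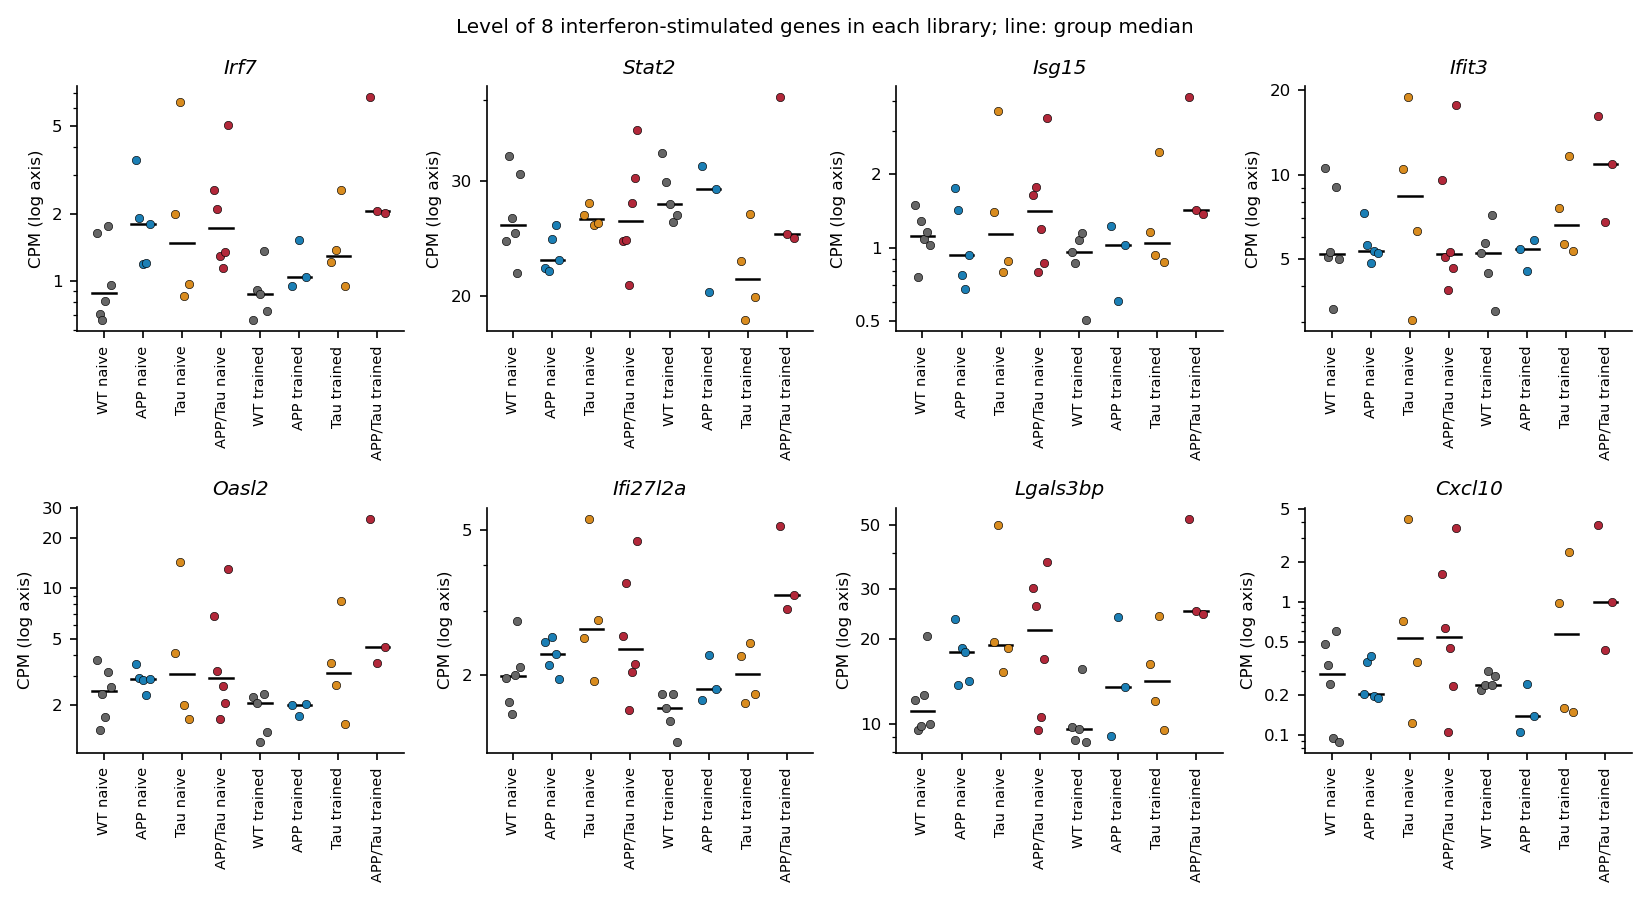
CPM on a log axis of 8 members in every library, by group (grey WT, blue APP, orange Tau, red APP/Tau; horizontal line, group median). Except for Stat2, single libraries of the Tau and APP/Tau groups lie far above their group's median, such as 26 CPM of Oasl2 in trained APP/Tau.

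Averaged over the 4 differences that carrying Tau makes (with and without APP, naive and trained), 9 of the 37 members rose and none fell by edgeR's quasi-likelihood test with Benjamini-Hochberg adjustment over 25382 genes. The share of all genes called in this comparison was 0.835%, and 0.725% were called higher. Cxcl10 had a log2 change of 2.39 ± 0.55 (SE), adjusted p = 0.0300 and Ifi44 a log2 change of 1.76 ± 0.42 (SE), adjusted p = 0.0338. Ifi27l2a had a log2 change of 0.57 ± 0.13 (SE), adjusted p = 0.0333, Xaf1 a log2 change of 0.47 ± 0.12 (SE), adjusted p = 0.0381, Parp9 a log2 change of 0.42 ± 0.10 (SE), adjusted p = 0.0377 and Ifit2 a log2 change of 0.26 ± 0.06 (SE), adjusted p = 0.031. Oasl2 at 1.40, Parp14 at 0.72 and Eif2ak2 at 0.39 on the log2 scale also passed. 36 of 37 members were above 0 (47% of all genes), the members' median was 0.566 against -0.00748 for all genes, and 31 had an unadjusted p under 0.05 (13.2% of all genes). Stat2 at -0.01, Cmpk2 at 0.11, Herc6 at 0.17 and Irf9 at 0.19 were among the smallest differences.

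These calls changed when single libraries were left out, both libraries labelled with Tau and libraries without it. The members' median in those fits ran from 0.429 (without Tau naive replicate 2) to 0.608 (without Tau naive replicate 3). Without the 5 libraries whose activated microglia score exceeded 1 (an alternative chosen after seeing the data), none of the 37 passed and the members' median was 0.167. Those 5 libraries are all labelled with Tau and have the 5 highest list scores. This fit thus drops the highest values from 1 side of the comparison, and it does not test the part of microglia. The 9 calls were also lost when any of APP/Tau trained replicate 1, Tau trained replicate 1, Tau trained replicate 3, Tau naive replicate 2 or APP trained replicate 1 was left out. It was 2 without WT trained replicate 5, 3 without APP naive replicate 4, and 4 or 5 without any of WT naive replicates 2, 3 and 4, WT trained replicates 1, 2 and 3, APP naive replicates 1, 2 and 3, APP trained replicate 2, APP/Tau naive replicates 1 and 6, and APP/Tau trained replicate 3. It was 14 without APP/Tau naive replicate 3 and 15 without Tau naive replicate 3. Without Tau trained replicate 4, the library that goes against its label, 12 members passed, among them all 9. With no filter on low counts, 1 of the 9 (Ifit2) passed. The count was 17 with DESeq2, again with all 9 among them, and 3 with limma-voom, which kept Ifi27l2a and Ifit2 and added Lgals3bp.

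The 5 libraries are the same ones that stand out for activated microglia. Clec7a, a receptor of activated microglia, was at 6.55 CPM in Tau trained replicate 3, 8.79 in Tau naive replicate 2, 12.4 in APP/Tau naive replicate 1, 13.8 in APP/Tau trained replicate 1 and 14.3 in APP/Tau naive replicate 6, against at most 1.39 CPM in the other 31. The summed level of 12 activated microglia markers ran from 112 to 154 CPM in naive WT, 126 to 212 in naive Tau, 113 to 318 in naive APP/Tau, 108 to 128 in trained WT, 135 to 186 in trained Tau and 115 to 281 in trained APP/Tau. In the Tau carrier comparison, 4 of these 12 rose (Clec7a, Itgax, Cst7 and Ccl4), 1 of 10 homeostatic microglia markers rose (Sall1, log2 change 0.23), and all 6 oligodendrocyte markers rose (0.34 to 0.41). The share of all genes called higher there was 0.725%. The summed level of the 10 homeostatic microglia markers was 453 to 605.4 CPM in the 5 libraries, above all of the other 31 (297.3 to 434.5 CPM). Among these 10, P2ry12 overlapped, at 32.1 to 38.1 CPM in the 5 libraries and 26.8 to 43.3 CPM in the other 31. The summed level of 6 astrocyte markers was 2346 CPM in Tau naive replicate 2, 3057 and 2432 in APP/Tau naive replicates 1 and 6, and 2593 in APP/Tau trained replicate 1, above all of the other 31 (1046 to 2219 CPM), and 1731 CPM in Tau trained replicate 3, within their range. Of these 6, Gfap had the widest range over all libraries, 214 to 1812 CPM. Slc1a3 ran from 484 to 637 CPM, Gja1 from 150 to 236, Aqp4 from 105 to 255, Vim from 23.6 to 95.8 and Aldh1l1 from 36.2 to 58.4. In the Tau carrier comparison 0 of the 6 astrocyte markers passed, with 6 above 0 and a median log2 change of 0.17. The part of these cells in the result was not tested, and in bulk tissue more cells of a type cannot be told apart from more RNA per cell.

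The order of the libraries was not the same for both lists. APP/Tau naive replicate 1 had an activated microglia score of 2.57 with a list score of 0.637, and Tau naive replicate 2 a score of 1.90 with a list score of 1.39. APP naive replicate 1 had a list score of 0.444 with an activated microglia score of -0.627, and APP/Tau trained replicates 2 and 3 had list scores of 0.299 and 0.341 with activated microglia scores of 0.05 and -0.32. No T cell, monocyte or neutrophil marker list reached a sum of 2 CPM in any library. The T cell sum was highest in Tau naive replicate 2 at 1.758 CPM and APP/Tau naive replicate 6 at 1.048 CPM, against at most 0.9493 CPM elsewhere. It was 0.5333 CPM in APP/Tau naive replicate 1, 0.5206 in APP/Tau trained replicate 1 and 0.3369 in Tau trained replicate 3. The part of these cells was not tested.

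**Figure D4:**
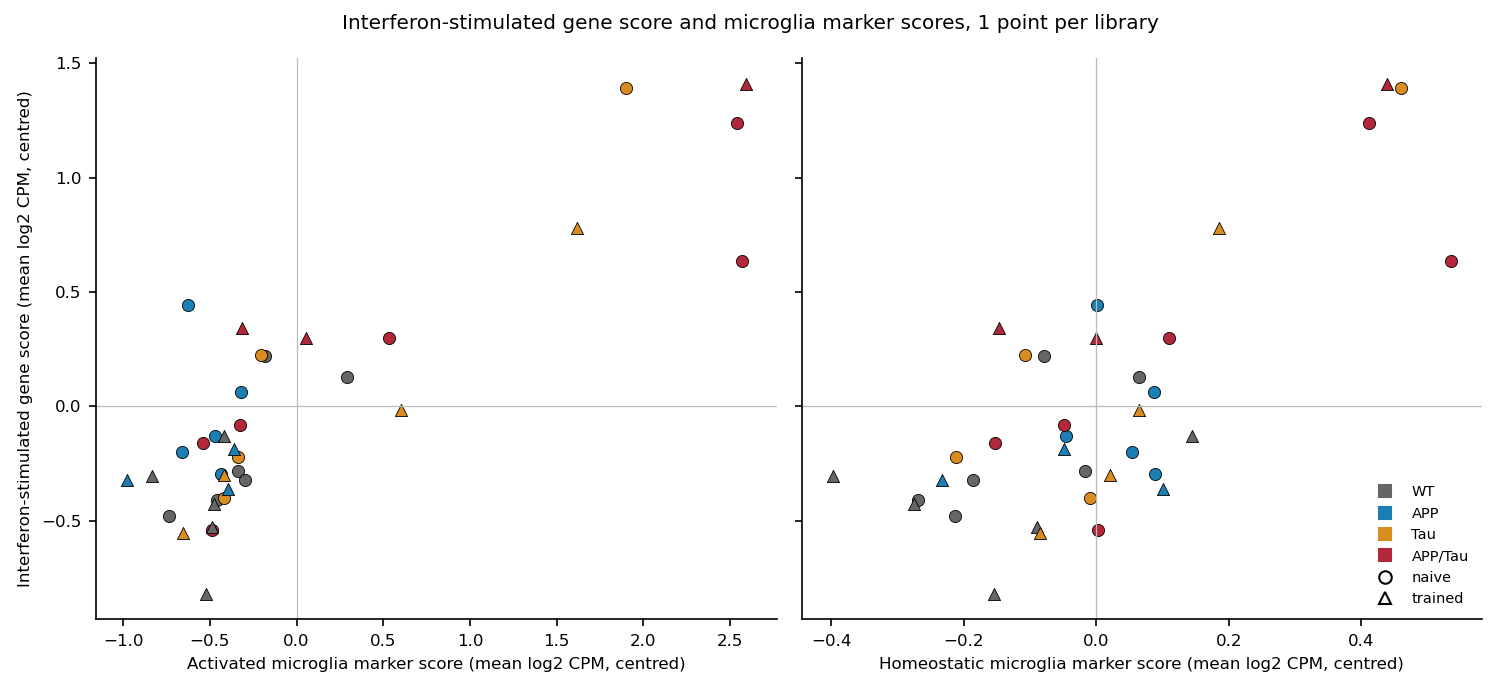
Mean centred log2 CPM of the 37 members (vertical axis) against that of 12 activated microglia markers (left) and 10 homeostatic microglia markers (right), 1 point per library, coloured by genotype, circles naive and triangles trained. The 5 libraries above 1 on the left axis hold the 5 highest member scores; the remaining libraries spread from -0.818 to 0.444 in member score at activated microglia scores of 0.601 or less.

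Against WT in the naive state, no member passed edgeR's quasi-likelihood test in APP, Tau or APP/Tau mice, where 0.0355%, 0.0276% and 0.067% of all genes were called. Naive Tau had 11 members with an unadjusted p under 0.05, all higher, and naive APP/Tau also had 11, against 9.31% and 7.48% of all genes in either direction. Naive APP had 0, against 3.68%. The members' median log2 difference was 0.124 in APP, 0.541 in Tau and 0.418 in APP/Tau (all genes: -0.00772, -0.00076 and 0.00134). The APP median ran from 0.0384 without APP naive replicate 1 to 0.223 without WT naive replicate 1. The Tau median was 0.0534 without Tau naive replicate 2, and the APP/Tau median was 0.156 without APP/Tau naive replicate 6. DESeq2 and limma-voom called 0 members in these 3 comparisons, which share the naive WT libraries, as the 3 trained comparisons share the trained WT libraries.

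The 4 members with the smallest p in naive Tau were Eif2ak2 (log2 change of 0.51 ± 0.18 (SE), adjusted p = 0.412), Lgals3bp (log2 change of 1.05 ± 0.37 (SE), adjusted p = 0.412), Ifi27l2a (log2 change of 0.64 ± 0.24 (SE), adjusted p = 0.457) and Ifi35 (log2 change of 0.56 ± 0.23 (SE), adjusted p = 0.483). In naive APP/Tau they were Eif2ak2 (log2 change of 0.42 ± 0.16 (SE), adjusted p = 0.618), Parp14 (log2 change of 0.75 ± 0.30 (SE), adjusted p = 0.618), Ifi44 (log2 change of 1.72 ± 0.69 (SE), adjusted p = 0.618) and Mx1 (log2 change of 1.81 ± 0.77 (SE), adjusted p = 0.633). In naive APP they were Gbp7 (log2 change of 0.49 ± 0.26 (SE), adjusted p = 1.00), Stat2 (log2 change of -0.20 ± 0.14 (SE), adjusted p = 1.00), Irf7 (log2 change of 0.75 ± 0.52 (SE), adjusted p = 1.00) and Ifih1 (log2 change of 0.24 ± 0.17 (SE), adjusted p = 1.00), all by edgeR's test. None of these 12 differences passed.

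The widest separation from WT was in the trained APP/Tau mice. All 37 members were above 0 there (48% of all genes), with a median log2 difference of 1.26 against -0.00813 for all genes, and 32 had an unadjusted p under 0.05, against 10.2% of all genes. In 23 of 37 members all 3 APP/Tau libraries lay above all 5 WT libraries, which held for 3.99% of all genes. Yet none passed the adjusted threshold by edgeR's quasi-likelihood test, where 0.0552% of all genes were called. DESeq2 called 6 members higher (Ifi27l2a, Oasl2, Ifih1, Parp9, Ifitm3 and Lgals3bp), and limma-voom called 0.

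By edgeR, the smallest p-values in trained APP/Tau belonged to Ifi27l2a (log2 change of 1.26 ± 0.28 (SE), adjusted p = 0.121), Ifih1 (log2 change of 0.89 ± 0.20 (SE), adjusted p = 0.126), Parp9 (log2 change of 0.93 ± 0.22 (SE), adjusted p = 0.139) and Lgals3bp (log2 change of 1.70 ± 0.42 (SE), adjusted p = 0.155). The members' median was 0.744 without APP/Tau trained replicate 1, the library with the highest list score. Ordered by role, the median log2 difference was 2.24 for the 2 secreted members, 1.65 for the 3 OAS genes, 1.49 for the 4 GTPases, 1.43 for the 2 membrane factors, 1.37 for the ISG15 system, 1.13 for the IFIT genes, 0.93 for Parp9, Parp14 and Dtx3l, 0.925 for the 8 other intracellular members, 0.893 for the sensors, 0.752 for the nucleotide enzymes, 0.743 for Eif2ak2 and 0.518 for the transcription factors. The 5 members whose unadjusted p was over 0.05 were Stat2, Irf9, Dhx58, Cmpk2 and Herc6.

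Marker sums of 3 other cell types lay above every trained WT library in all 3 trained APP/Tau libraries. The summed level of 6 oligodendrocyte markers was 4940 to 5320 CPM against 2990 to 3865 CPM in trained WT, that of 6 astrocyte markers 2593, 1411 and 1348 CPM against 1164 to 1328 CPM, and that of 5 perivascular macrophage markers 9 to 16.5 CPM against 4.58 to 7.91 CPM. The sums of the other cell type lists overlapped, among them endothelial markers at 111 to 127.9 CPM against 40.52 to 111.1 CPM. Homeostatic microglia were at 359.1 to 572.7 CPM against 297.3 to 428 CPM, and activated microglia as given above. Choroid plexus markers were at 108.6, 2323 and 2174 CPM in APP/Tau trained replicates 1, 2 and 3, against 79.01 to 1011 CPM in trained WT. None of these marker genes passed in this comparison by edgeR's test, and their part in the result was not tested.

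In trained Tau against trained WT, 0 members passed by edgeR's test while 0.303% of all genes did, 5 members were higher and 1 lower at an unadjusted p under 0.05 (15.2% of all genes), and the median was 0.510 (all genes 5.23e-05). It was 0.171 without Tau trained replicate 3 and 0.653 without Tau trained replicate 4. Stat2 was the lower one (log2 change of -0.39 ± 0.15 (SE), adjusted p = 0.204); limma-voom called Stat2 lower, its only member call, and DESeq2 called 0. Ifi44 (log2 change of 2.33 ± 0.91 (SE), adjusted p = 0.211), Dtx3l (log2 change of 0.36 ± 0.14 (SE), adjusted p = 0.212) and Parp9 (log2 change of 0.51 ± 0.21 (SE), adjusted p = 0.231) came next by edgeR.

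In trained APP against trained WT the median was 0.120 (all genes 0.00842), 0 members passed by any of the 3 tools, 0 had an unadjusted p under 0.05 (5.84% of all genes), and 0.0276% of all genes were called by edgeR. The median ran from 0.0427 without WT trained replicate 5 to 0.230 without WT trained replicate 4. The smallest p-values belonged to Ifih1 (log2 change of 0.34 ± 0.21 (SE), adjusted p = 0.872), Ifitm3 (log2 change of 0.51 ± 0.37 (SE), adjusted p = 0.88), Parp9 (log2 change of 0.30 ± 0.23 (SE), adjusted p = 0.891) and Lgals3bp (log2 change of 0.55 ± 0.43 (SE), adjusted p = 0.900). Averaged over its 4 differences, carrying APP gave 0 members passing by any of the 3 tools while 0.0985% of all genes were called by edgeR. 7 members had an unadjusted p under 0.05, all higher (9.95% of all genes in either direction), and the members' median was 0.217. It ran from 0.115 without APP/Tau trained replicate 1 to 0.358 without Tau naive replicate 2. Ifih1 (log2 change of 0.26 ± 0.09 (SE), adjusted p = 0.34) and Lgals3bp (log2 change of 0.48 ± 0.20 (SE), adjusted p = 0.408) led by edgeR's test.

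**Figure D5:**
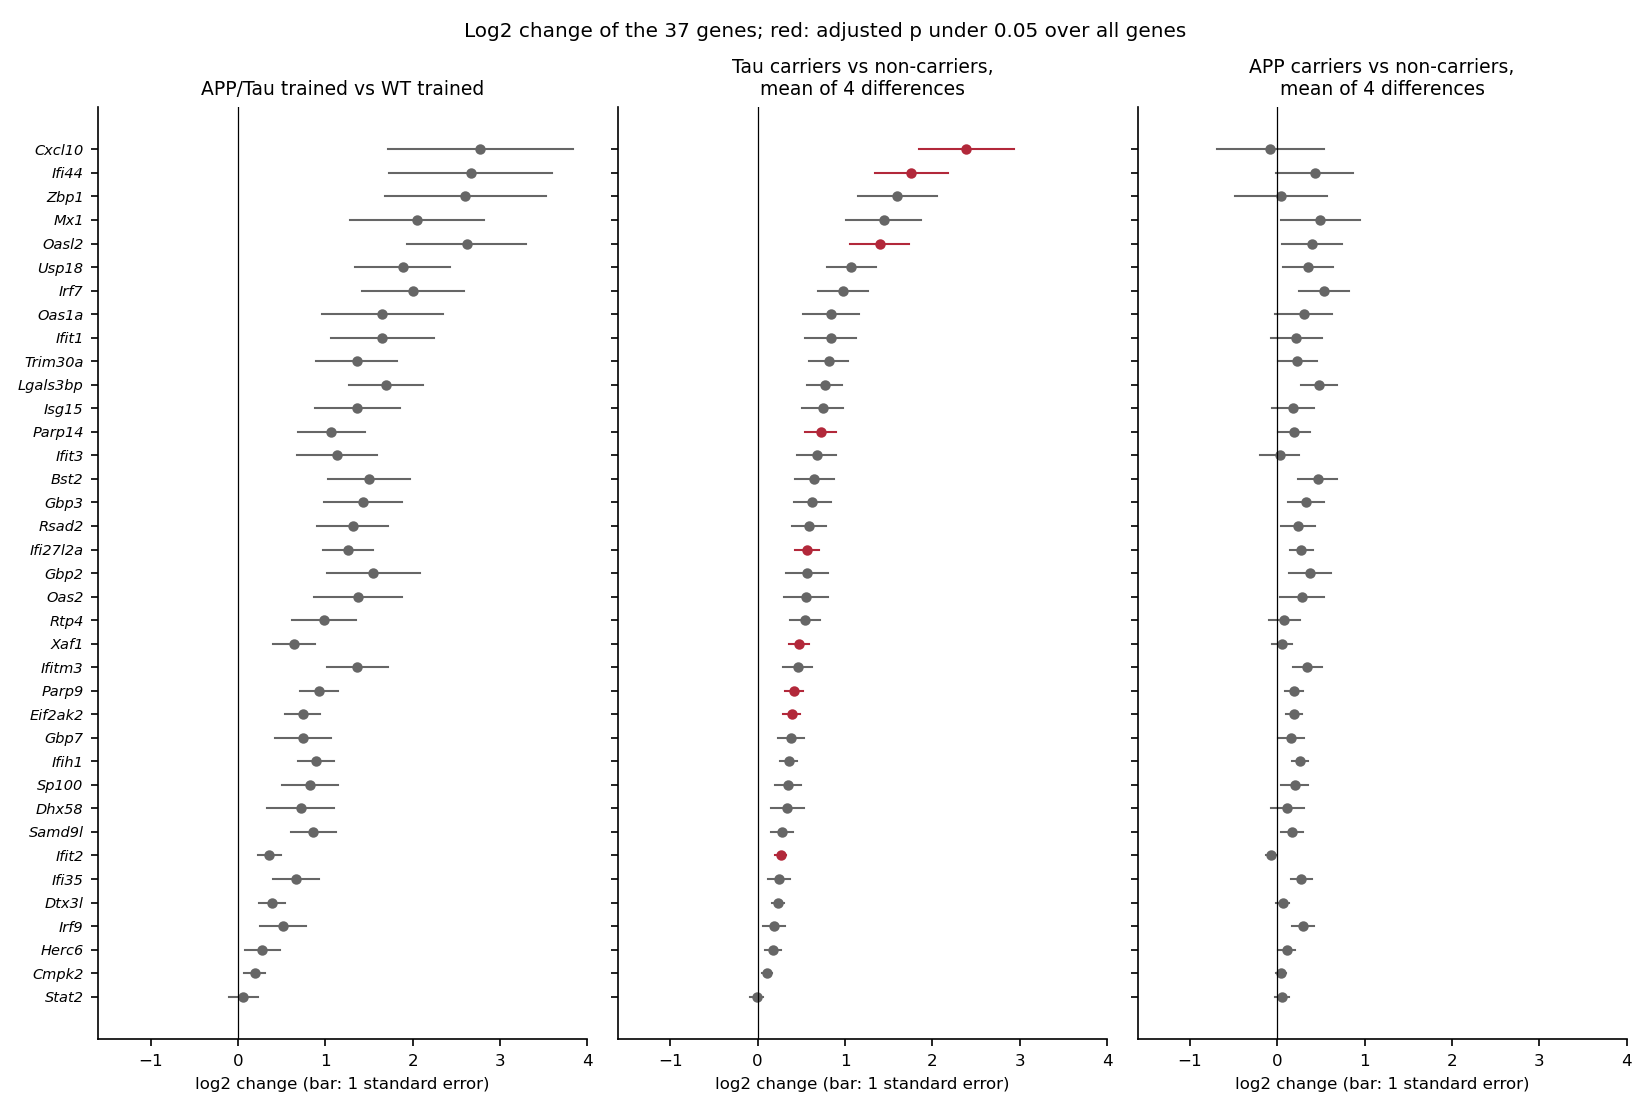
Log2 change (points) with 1 standard error (bars) of the 37 members in trained APP/Tau against trained WT and in the averaged Tau and APP comparisons, ordered by the Tau comparison; red marks an adjusted p under 0.05 over all genes. The 9 red members are all in the Tau panel, while the larger differences of the left panel carry wider errors.

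Between trained and naive mice, the members' median log2 difference was below 0 in WT, APP and Tau mice and above 0 in APP/Tau mice. No gene of any kind passed edgeR's test in the 4 comparisons of trained with naive mice (0% of 25382 genes in each), and 0 members passed by DESeq2 or limma-voom. That median was -0.31 in WT (33 of 37 below 0), -0.20 in APP (31 below) and -0.35 in Tau (35 below), and 0.416 in APP/Tau (37 above). Of all genes, 47.9%, 54.1%, 47.7% and 51.1% were above 0 in these 4 comparisons. The median of all genes lay between -0.0125 and 0.0154. At an unadjusted p under 0.05 there were 2 lower members in WT, 1 in APP, 3 in Tau and 1 higher in APP/Tau, against 5.85%, 5.24%, 14.6% and 3.07% of all genes.

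2 of these medians change sign with a single library. The Tau median was 0.160 without Tau naive replicate 2, and the APP/Tau median was -0.02 without APP/Tau trained replicate 1. They were -0.74 without Tau trained replicate 3 and 0.697 without APP/Tau naive replicate 6. The WT median ran from -0.44 to -0.20 (without WT trained replicate 4 and WT naive replicate 5) and the APP median from -0.28 to -0.13 (without APP naive replicate 4 and APP trained replicate 1). In APP mice, Oasl2, Dtx3l and Gbp7 were lower in all 3 trained libraries than in all 5 naive ones, which held for 1.2% of all genes.

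By edgeR's test, the smallest p-values for training in WT belonged to Ifit2 (log2 change of -0.25 ± 0.11 (SE), adjusted p = 0.845), Ifitm3 (log2 change of -0.65 ± 0.31 (SE), adjusted p = 0.845), Samd9l (log2 change of -0.43 ± 0.23 (SE), adjusted p = 0.845) and Parp9 (log2 change of -0.34 ± 0.19 (SE), adjusted p = 0.845). In APP they belonged to Gbp7 (log2 change of -0.65 ± 0.31 (SE), adjusted p = 0.924), Dtx3l (log2 change of -0.27 ± 0.15 (SE), adjusted p = 0.924), Xaf1 (log2 change of -0.35 ± 0.25 (SE), adjusted p = 0.925) and Parp14 (log2 change of -0.54 ± 0.41 (SE), adjusted p = 0.927). In Tau they belonged to Samd9l (log2 change of -0.74 ± 0.25 (SE), adjusted p = 0.172), Ifi35 (log2 change of -0.60 ± 0.26 (SE), adjusted p = 0.265), Ifi27l2a (log2 change of -0.63 ± 0.27 (SE), adjusted p = 0.271) and Eif2ak2 (log2 change of -0.39 ± 0.20 (SE), adjusted p = 0.36). In APP/Tau they belonged to Oasl2 (log2 change of 1.23 ± 0.58 (SE), adjusted p = 1.00), Usp18 (log2 change of 0.89 ± 0.46 (SE), adjusted p = 1.00), Ifi27l2a (log2 change of 0.49 ± 0.25 (SE), adjusted p = 1.00) and Ifih1 (log2 change of 0.33 ± 0.19 (SE), adjusted p = 1.00). Averaged over genotypes the median was -0.13, with 2 members lower at an unadjusted p under 0.05 (7.95% of all genes), Samd9l (log2 change of -0.26 ± 0.12 (SE), adjusted p = 0.616) and Ifit2 (log2 change of -0.13 ± 0.06 (SE), adjusted p = 0.626), and 0% of all genes called. With single libraries left out this median ran from -0.25 (without APP/Tau trained replicate 1) to -0.0006 (without Tau naive replicate 2).

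Whether training acted differently in APP/Tau and WT mice was tested by an interaction. 36 of 37 members were above 0 (50.4% of all genes), with a median of 0.780 against 0.00204 for all genes, 5 had an unadjusted p under 0.05 (4.14% of all genes), and 0 members and 0% of all genes passed by edgeR's test. Ifitm3 (log2 change of 1.12 ± 0.44 (SE), adjusted p = 0.981) and Samd9l (log2 change of 0.83 ± 0.33 (SE), adjusted p = 0.981) led, and the median was 0.221 without APP/Tau trained replicate 1. In the interactions of training with APP alone and with Tau alone, 0 members and 0% of all genes passed, 0 members had an unadjusted p under 0.05 (2.67% and 9.04% of all genes), and the medians were 0.0536 and -0.05. With single libraries left out both medians changed sign, from -0.02 (without WT naive replicate 5) to 0.160 (without APP naive replicate 1) for APP and from -0.41 (without Tau trained replicate 3) to 0.423 (without Tau naive replicate 2) for Tau. Gbp7 (log2 change of -0.37 ± 0.42 (SE), adjusted p = 1.00) and Ifitm3 (log2 change of 0.39 ± 0.47 (SE), adjusted p = 1.00) led with APP, and Stat2 (log2 change of -0.37 ± 0.21 (SE), adjusted p = 0.586) and Ifi35 (log2 change of -0.59 ± 0.35 (SE), adjusted p = 0.609) with Tau.

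The difference of APP/Tau from the sum of both single transgenes was tested in each state. In trained mice 35 of 37 members were above 0 (50% of all genes) with a median of 0.532, 2 had an unadjusted p under 0.05 (9.39% of all genes), and 0 members passed by edgeR's test where 0.0118% of all genes did. Irf9 (log2 change of 0.92 ± 0.39 (SE), adjusted p = 0.495) and Stat2 (log2 change of 0.53 ± 0.23 (SE), adjusted p = 0.512) led, and the median was 0.0857 without APP/Tau trained replicate 1. In naive mice the median was -0.22 with 8 of 37 above 0 (50.8% of all genes), 0 members had an unadjusted p under 0.05 (7.13% of all genes), 0 members and 0% of all genes passed, and Gbp7 (log2 change of -0.65 ± 0.37 (SE), adjusted p = 0.738) and Lgals3bp (log2 change of -0.75 ± 0.51 (SE), adjusted p = 0.789) led. That naive median was 0.261 without Tau naive replicate 2 and -0.49 without APP/Tau naive replicate 6. DESeq2 and limma-voom called 0 members in each interaction and in both tests of additivity.

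The rest of the pathway was read beside the members. Interferons themselves had few or no reads: of 21 ligand genes, 0 passed the filter, 10 had no count in any library, and the other 11 had 1 to 22 counts over all 36 libraries together. Ifnz had the most in total, and Ifng the most in a single library, 6 counts. Ifnar1, a receptor chain, was at 42.9 to 49.5 CPM in all 36 libraries, and its log2 change with Tau was 0.00 ± 0.02 (SE). Ifnar2 ranged from 12.3 to 19.2 CPM. Irf1, an early factor of the type II response, had a log2 change of 0.11 ± 0.07 (SE), adjusted p = 0.555 with Tau by edgeR's test.

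In the averaged Tau comparison, 0 of 9 receptor and kinase genes and 0 of 11 other transcription and feedback genes passed edgeR's test. Of all genes, 0.835% passed there, and 0.725% were called higher. 1 of 16 nucleic acid sensing genes tested rose, the DNA sensor Tlr9 (log2 change of 0.53 ± 0.12 (SE), adjusted p = 0.0217). Of 61 further interferon-stimulated genes tested, 5 rose and 0 fell: Ifi44l (log2 change of 2.67 ± 0.57 (SE), adjusted p = 0.0114), the chemokines Ccl5 (log2 change of 2.16 ± 0.52 (SE), adjusted p = 0.0335) and Ccl12 (log2 change of 1.98 ± 0.46 (SE), adjusted p = 0.0285), the helicase Ddx60 (log2 change of 1.15 ± 0.27 (SE), adjusted p = 0.0341) and Rnf213 (log2 change of 0.49 ± 0.11 (SE), adjusted p = 0.0300). The first 3 of these are close to the detection limit in most libraries. Ifi44l had 0 to 64 counts (median 0.052 CPM, 0 counts in 9 libraries), Ccl5 2 to 147 (median 0.10 CPM) and Ccl12 0 to 103 (median 0.16 CPM). How these calls change with single libraries left out is not given here. The median of the 61 was 0.460, with 59 above 0 (47% of all genes). In trained APP/Tau against trained WT their median was 0.958, with 59 above 0 (48% of all genes). By edgeR's test 37 had an unadjusted p under 0.05 (10.2% of all genes). None of them passed, while 0.0552% of all genes did. In no other comparison did a gene of these lists pass.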

How the data were processed

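Poly(A) RNA from the hippocampal input lysate of 36 samples was sequenced in pairs of reads, per the labels' protocols. The authors deposited 1 table of whole-number counts per gene, not normalized. The submitters' processing notes name Trimmomatic 0.39, a read trimmer, and genome build mm39. Aligner, counter, strand setting and annotation: not given in the sources used here. Totals ran from 69.2 to 124.8 M counts per library, and intervals and p-values cover the spread between libraries.

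Groups came from the sample titles. Genes were kept by edgeR's filterByExpr (minimum count 10, minimum total 15), which left 25382 of 50559. Libraries were scaled by TMM, and edgeR 4.0.16 in R 4.3.3 fitted 8 groups together with glmQLFit (robust, current estimator) and tested 18 contrasts with glmQLFTest. Adjusted p is Benjamini-Hochberg over all genes tested, with a threshold of 0.05. The step was tested on simulated data. A simulated log2 change of size 1 was recovered for 68% of genes in trained APP/Tau against trained WT and 86% in the Tau carrier comparison. For size 2 it was 82% and 93%. False calls made up 6.83% and 7.25% of the genes called, more than the threshold of 0.05. The averaged carrier comparisons are the mean of 4 log2 differences. List and marker scores are means of log2 CPM (prior count 2), centred over libraries. Alternatives were DESeq2 1.42.0, limma 3.58.1 voom with quality weights, RLE size factors, no filter, only the groups compared, replicate number as a block, library number as a covariate, and leaving out each library; edgeR's older estimator and the fit without 5 libraries were added after seeing the data.

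The members, the pathway lists, the cell type markers and the promoters shown were chosen with earlier results of these data known. In each two-group comparison the text gives the members that passed or, where fewer than 4 did, the 4 with the smallest p; in the other contrasts it gives the first 6 that passed or the 2 with the smallest p. Of the lists read as background, in the Tau carrier comparison 0 of 5 perivascular macrophage, 0 of 5 red blood cell, 0 of 7 endothelial, 0 of 8 mural and fibroblast, 0 of 7 choroid plexus, 0 of 6 astrocyte, 0 of 8 hippocampal neuron, 0 of 6 striatal, 0 of 5 interneuron, 0 of 5 monocyte and neutrophil and 0 of 4 tested T cell markers passed.

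Motifs were searched in RefSeq promoters of build GRCm38.p6, and no sequence or position was moved between builds. No 2 libraries held identical counts. Replicate numbers did not pair libraries: among 106 pairs with the same number, the median correlation of their deviations from group means was -0.01.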

Additional observations from a re-analysis of the deposited data

Results flagged for a closer look

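Single libraries stood far from the rest of their group in 11 of 120 sets of library values tested. The nominal rate of about 1 in 20 holds for independent sets of normally distributed values. These sets share libraries and use CPM that were not log-transformed, so the count does not show an excess over chance. Irf7 was at 5.07 CPM in APP/Tau naive replicate 6, with the nearest library of its group at 2.56. Irf9 was at 11.2 CPM in Tau trained replicate 3, with the nearest at 6.04. Ifih1 was at 2.39 CPM in WT naive replicate 2, the low end, with the nearest at 3.51.

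Gbp7 stood out in 3 groups, at 6.17 CPM in WT naive replicate 5, 10.4 in APP naive replicate 1 and 10.7 in Tau naive replicate 2. Lgals3bp did so at 20.5 CPM in WT naive replicate 5, 50.2 in Tau naive replicate 2 and 15.7 in WT trained replicate 4, the library with striatal markers. Samd9l was at 5.16 CPM in WT naive replicate 1 and Cxcl10 at 4.21 CPM in Tau naive replicate 2. These groups include naive WT and APP, so high values of single members were not confined to libraries labelled with Tau.

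Training pointed opposite ways in APP/Tau and in other genotypes for several measures, in that every trained APP/Tau library was above the naive APP/Tau mean and every trained library of another genotype was below its own naive mean. For the list score (mean 0.683 in trained APP/Tau) this held against APP; the difference was not tested for the score. For Ifi27l2a (mean 3.83 CPM in trained APP/Tau) and Ifitm3 (9.72 CPM) it held against WT, APP and Tau, for Ifih1 (5.47 CPM) against WT, and for Lgals3bp (34 CPM) and Samd9l (4.96 CPM) against Tau. With naive medians in place of means, it did not hold for Ifitm3 against APP and Tau, nor for Lgals3bp against Tau. Tau trained replicate 3, at 7.45 and 24 CPM of these genes, lay above the naive Tau medians of 6.41 and 19.1 CPM. APP trained replicates 2 and 3, at 6.38 and 6.04 CPM of Ifitm3, lay above the naive APP median of 5.58 CPM. The share of all genes that meet this rule was not counted. The difference from WT was tested by the APP/Tau by training interaction, which none of the 37 members passed by edgeR's quasi-likelihood test; the differences from APP and from Tau were not tested.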

How the results depend on the processing

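Members called in the averaged Tau comparison numbered 9 as reported, 9 with RLE size factors, 8 with library number as a covariate and 10 with edgeR's older estimator. They numbered 1 with no filter on low counts, 17 with DESeq2, 3 with limma-voom, 5 with the replicate block, 0 without the 5 libraries above 1 in activated microglia score, and 0 to 15 when single libraries were left out. The cause was not tested. The replicate block changed no other count of members called. In trained APP/Tau against trained WT, DESeq2 called 6 members against 0, and the members' median was 0.744 without the 5 libraries and 0.744 to 1.41 with single libraries left out. Limma-voom called 1 member against 0 in trained Tau against trained WT. With single libraries left out, the median ran from -0.74 to 0.160 for trained against naive Tau and from 0.221 to 1.07 for the APP/Tau by training interaction. The log2 change of Oasl2 in trained against naive APP/Tau reversed to -0.27 without APP/Tau trained replicate 1 and ran up to 1.84 with other libraries left out. Replicate numbers were not taken as pairing the samples, since 18 of 106 same-number pairs correlated above 0.1. Depth limits Mx1 and Zbp1 most, which had at most 96 and 93 counts in a library and 0 in the lowest.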
